A study of Mus musculus with 12 samples.

Results

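Brefeldin A (BFA) and EHT-1864, a pair of inhibitors of small GTPase pathways that are structurally unrelated, were compared under hypoxia in cultured mouse glioma cells. The comparison rests on 6 arrays of 12 in the series, 3 labelled Hypoxia+ BFA and 3 labelled Hypoxia+ EHT, and on all 22206 transcript clusters (here probes) of the Clarion S mouse array that are not controls. All groups used S100β-v-erbB/p53-/- TSC1 cells of the FVB-NJ strain, so the controls carried the v-erbB transgene, an activated relative of EGFR, driven by the S100β promoter, and the loss of p53 as well. The 2 other groups of 3 arrays each received DMSO, in hypoxia or in normoxia. Exposure lasted 16 h in every group. EHT-1864 was given at 1 µM, whereas the BFA dose is 1 µM in the treatment protocol and 0.1 µM in the series title, so that the doses may or may not have been matched. The design text mentions 3 independent cultures but does not say which arrays came from the same one, and all of them are 1 cell line.

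BFA blocks the exchange factors that load ARF GTPases with GTP on Golgi membranes. COPI coats then fall off, the Golgi is absorbed into the endoplasmic reticulum (ER), and unexported proteins build up in the ER lumen. The ER answers through the unfolded protein response (UPR), in which ATF6 and XBP1 raise chaperones and degradation factors and the kinase PERK acts through eIF2 alpha and ATF4 on amino acid and stress genes. EHT-1864 binds Rac GTPases and keeps them from activating their effectors, among them the WAVE complex, which drives branched actin assembly, and PAK kinases. Hypoxia stabilises HIF-1 alpha, whose targets serve glycolysis, angiogenesis and matrix hydroxylation.

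Values are log2 array signals, and each difference is BFA minus EHT-1864 with the standard error (SE) of a limma fit over all 12 arrays. A probe was called when its p-value, adjusted over all 22206 probes by the method of Benjamini and Hochberg, was under 0.05. By this rule 8108 probes (36.5%) were called, 3760 (16.9%) higher with BFA and 4348 (19.6%) lower. At least 2-fold differences numbered 903 (4.07%) higher and 1507 (6.79%) lower, and 1414 and 1270 after the arrays were set to the same median and median absolute deviation (MAD). The 3 BFA arrays lay above all 3 EHT-1864 arrays in 20.3% of probes and below them in 22.0%. In 1678 of the higher and 557 of the lower calls both groups lay below the floor, the 95th percentile of the negative control probes of each array, so that no fold is given for such a probe. If a group lay over the floor on part of its arrays, their number is given, and where such a group's mean lay below its mean floor the array values are given in place of a difference.

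The arrays of both compounds differed in their overall distribution, and these values accompany every result that follows. The SD over the probes of an array averaged 2.28 with BFA and 2.40 with EHT-1864, the floor 6.49 and 6.01, and the share of probes below it 65.2% and 57.6%. Spiked hybridization controls averaged 10.93 and 10.25. The median difference of all probes was 0.06, but it went from 0.17 in the dimmest 10% of probes to -0.29 in the brightest 10%. The part of these array properties in any gene's difference was not tested. Setting the arrays to the same median and MAD moved 25 of 39 list medians by more than the spread between arrays, and quantile normalization moved 21, beside the medians that turned sign.

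**Figure D1:**
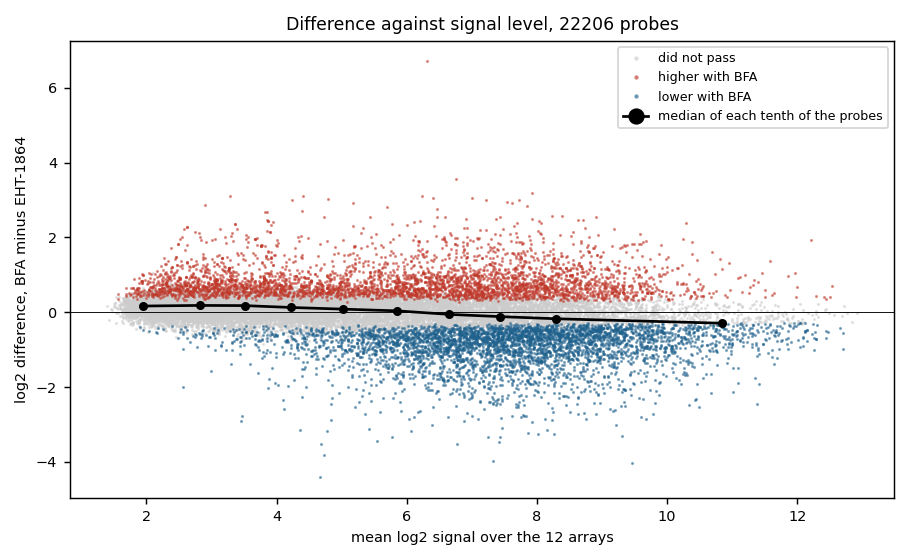
Each point is a probe, with its mean log2 signal over the 12 arrays on the x axis and the log2 difference, BFA minus EHT-1864, on the y axis. Red and blue mark called probes, grey those that did not pass, and the black line joins the medians of 10 bins of equal size by level, which go from 0.17 at the dim end to -0.29 at the bright end.

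The 15 leading rises and falls were ranked by fitted difference, and where 1 group lay below the floor the rank is not established. Fgf21 was among the rises and encodes fibroblast growth factor 21, a secreted metabolic hormone induced by ATF4. Fgf21 read 11.18, 11.46 and 11.36 on the BFA arrays and 4.41, 4.26 and 5.22 on the EHT-1864 arrays, where it lay below the floor throughout. The groups lay far apart, and BFA was at least 40.1-fold higher (adjusted p = 1.21e-08). Cdsn, encoding the adhesion protein corneodesmosin, read 9.25, 10.25 and 10.27 against 6.73, 6.01 and 6.36, a difference of 3.55 ± 0.27 (SE, 2 of 3 EHT-1864 arrays over the floor). Fkbp14, an ER prolyl isomerase, differed by 3.19 ± 0.15 (SE, 1 of 3 EHT-1864 arrays over the floor). Srxn1, the peroxiredoxin-repairing sulfiredoxin, read 8.41, 8.96 and 8.72 with BFA against 5.81, 5.07 and 6.06, with 1 of 3 EHT-1864 arrays over the floor. Plpp5, a phospholipid phosphatase, differed by 3.01 ± 0.14 (SE), and P2rx3, an ATP-gated cation channel, by 3.01 ± 0.23 (SE, 2 of 3 EHT-1864 arrays over the floor). Unc50 differed by 2.83 ± 0.24 (SE, 2 of 3 EHT-1864 arrays over the floor). For the genes below the floor on all EHT-1864 arrays, BFA was at least 5.38-fold higher for Rnd1, 4.41-fold for Fads3, 2.78-fold for Ostn and 3.1-fold for Calcrl, a receptor for calcitonin gene-related peptide and adrenomedullin. The rule for naming these genes required that the arrays of both groups lie apart, so that this is no finding.

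The falls included Scg2, encoding secretogranin II, a protein of dense-core secretory granules. Scg2 read 4.54, 4.47 and 3.82 with BFA, below the floor on every array, and 8.61, 9.19 and 8.21 with EHT-1864, at least 4.53-fold more (adjusted p = 1.30e-07). The DMSO level in hypoxia was 2.89 ± 0.43 (SD, n = 3), also below the floor. Mest, an imprinted gene, read 6.62, 7.63 and 7.58 with BFA and 11.60, 11.01 and 11.32 with EHT-1864, a difference of -4.03 ± 0.23 (SE, 2 of 3 BFA arrays over the floor), with a DMSO level of 9.66 ± 0.04 (SD, n = 3) between them. Nr1d1, the circadian repressor REV-ERB alpha, differed by -3.25 ± 0.20 (SE). In the remaining genes BFA lay below the floor on all 3 arrays. EHT-1864 was at least 6.91-fold higher for Fam180a, 4.91-fold for Ppargc1a, the coactivator PGC-1 alpha of mitochondrial gene programmes, and 4.1-fold for Slc29a1, a nucleoside transporter. The bound was 3.77-fold for Selenop, a secreted selenium carrier, 3.48-fold for Mmd2, 3.01-fold for Fndc3c1 and 2.83-fold for Slc16a6. It was 2.29-fold for Gem, a small GTPase, 1.82-fold for the ephrin receptor Epha3, 1.54-fold for Bnc2 and 1.48-fold for Bace2, a beta-secretase homologue. Against DMSO in hypoxia these genes differed in kind. For Fndc3c1, Mmd2, Slc29a1 and Id3 the EHT-1864 arrays stood at -0.28, -0.27, -0.29 and 0.17, which did not pass, and the BFA arrays lay below the floor. For Scg2, Gem, Ppargc1a, Bnc2, Bace2 and Slc16a6 the DMSO arrays lay below the floor as well as the BFA arrays, and EHT-1864 was the group with a measured level. Fam180a, above the floor with DMSO, stood 3.41 above it with EHT-1864 (adjusted p = 3.17e-08).

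**Figure D2:**
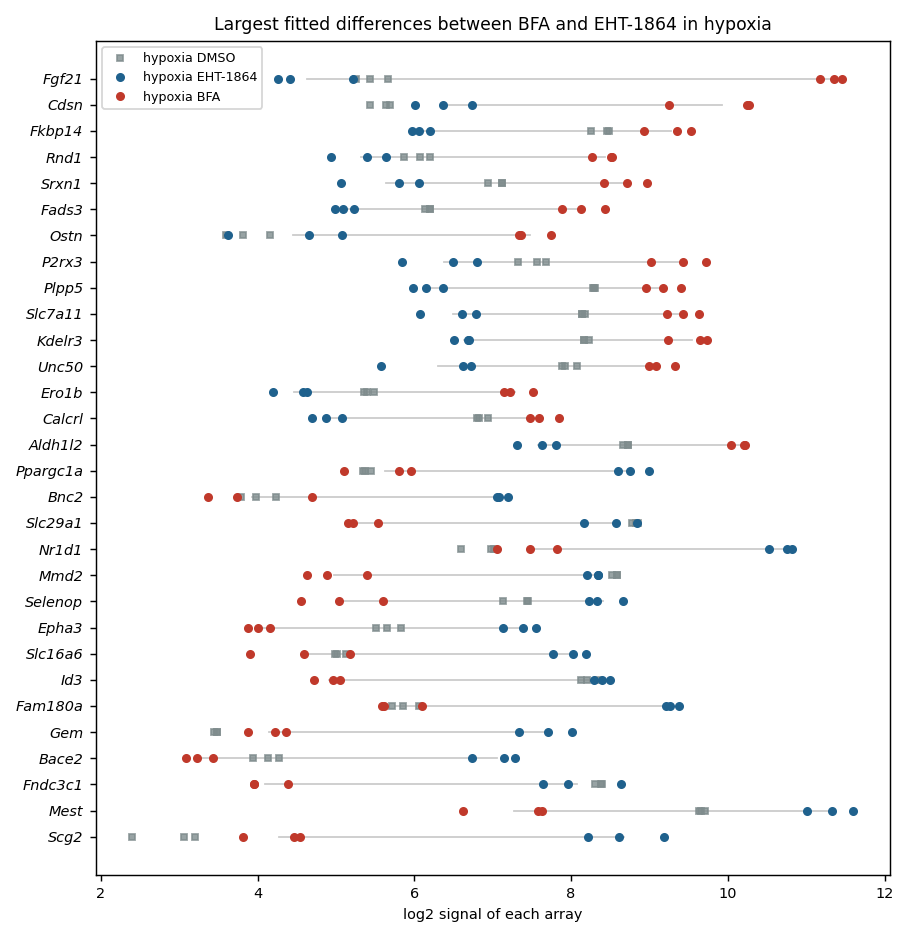
Log2 signal (x axis) of each array for the 15 leading rises (upper rows) and 15 leading falls (lower rows) by fitted difference, with BFA in red, EHT-1864 in blue and hypoxia with DMSO as grey squares; a grey line joins the BFA and EHT-1864 means. In every row the 3 red points lie on 1 side of the 3 blue points. Fgf21, Rnd1, Fads3, Ostn and Calcrl lay below the floor on all EHT-1864 arrays, and every fall but Mest and Nr1d1 on all BFA arrays. For these, and for any other row with a group below the floor, the distance drawn is no fold.

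ER chaperones and folding enzymes were higher with BFA. Of 24 measured, 19 were called higher, 1 lower and 4 did not pass, with a median difference of 1.25, and 15 were at least 2-fold higher. Hspa5 encodes BiP, the Hsp70 chaperone of the ER lumen and its main stress sensor partner. It read 13.24, 13.35 and 13.31 with BFA and 11.36, 11.34 and 11.44 with EHT-1864, a difference of 1.92 ± 0.10 (SE) with adjusted p = 3.38e-08. The groups did not overlap, and DMSO lay between them at 12.03 ± 0.01 (SD, n = 3). Creld2, an ER-resident stress protein, read 10.06, 10.33 and 10.21 against 7.85, 7.70 and 7.66 and differed by 2.46 ± 0.11 (SE). Ero1b, an oxidase that recharges protein disulfide isomerases, read 7.22, 7.51 and 7.15 with BFA and lay below the floor with EHT-1864, at least 2.44-fold lower. The lectin chaperone gene Calr differed by 1.04 ± 0.11 (SE). Uggt1, the glucosyltransferase that tests glycoprotein folding, differed by 0.36 ± 0.13 (SE) (adjusted p = 0.0486) and lost its call under several alternatives, among them leaving out single arrays of any group. Sil1, the nucleotide exchange factor of BiP, was the single member called lower, at -0.41 ± 0.13 (SE), and it lost the call in a fit without BFA array 2 or 3 or without EHT-1864 array 1 or 3, in the fit of 6 arrays and after quantile or MAD scaling. Against DMSO, 17 members were called higher with BFA and 0 lower, where 26.1% and 24.6% of all probes were (50.7% in either direction). With EHT-1864, 2 were called higher and 12 lower, where 13.0% and 17.4% of all probes were (30.5% in either direction).

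The promoters of these genes were searched for the ER stress element, the bipartite site for NF-Y and ATF6 or XBP1, written as CCAAT, 9 bases of any kind and CCACG, on both strands from 250 bases before to 50 bases after the start. Sequences were used for 15691 of 19505 measured genes, and 0.178% of these held the element, against 36.4% of the chaperone list (8 of 22). The 8 genes were Calr, Canx, Creld2, Dnajc3, Ero1b, Hsp90b1, Hspa5 and Pdia6, of which Canx did not pass the test. In the list of ER-associated degradation and translocon genes 2 of 21 (9.52%) held the element, Derl3 and Syvn1, and Syvn1 is printed below with the chaperone genes. Stretches of 80 bases from RefSeq (GRCm38.p6) are shown for 5 genes that carry it and were called higher, chosen after their values were seen, with the element in capitals and each stretch in the direction of the gene, so that a match on the opposite strand reads as its reverse complement:
Hspa5 (chr2:34771994-34772073, plus strand): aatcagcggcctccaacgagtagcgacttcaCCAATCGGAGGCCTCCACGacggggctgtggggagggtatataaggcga
Creld2 (chr15:88819489-88819568, plus strand): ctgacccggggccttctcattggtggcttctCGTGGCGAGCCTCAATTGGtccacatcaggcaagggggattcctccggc
Pdia6 (chr12:17266460-17266539, plus strand): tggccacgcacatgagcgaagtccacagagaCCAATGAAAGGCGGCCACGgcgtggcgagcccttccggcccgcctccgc
Dnajc3 (chr14:118937796-118937875, plus strand): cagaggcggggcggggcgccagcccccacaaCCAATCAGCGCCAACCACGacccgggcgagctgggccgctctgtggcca
Syvn1 (chr19:6046496-6046575, plus strand): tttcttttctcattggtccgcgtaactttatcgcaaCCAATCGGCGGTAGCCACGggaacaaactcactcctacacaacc
A match is a description of the letters and not of binding. The list was chosen by function, and ATF6 and XBP1 are known to raise chaperones, so its share is a description and no test.

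ER-associated degradation and the translocon followed, with 20 of 27 members higher, 0 lower (also 0 at an unadjusted p under 0.05) and a median of 0.61, which was 1.04 after scaling to the same MAD. Among degradation factors 11 of 13 were higher. Syvn1, the ubiquitin ligase HRD1, read 9.14, 9.20 and 9.32 against 7.17, 6.83 and 7.16 and differed by 2.17 ± 0.12 (SE). Its partner Sel1l differed by 2.005 ± 0.16 (SE), and the derlin gene Derl3 by 2.01 ± 0.13 (SE). The arrays of both groups lay apart in all 3 genes, and all BFA arrays lay above in 20.3% of all probes. These genes were named for their small adjusted p, so that this is no finding. Among translocation and signal peptidase genes 9 of 14 were higher, with Spcs3 at 1.38 ± 0.16 (SE) and Ssr2 at 0.74 ± 0.10 (SE). Spcs3 stood at -0.23 against DMSO with BFA (adjusted p = 0.232) and at -1.61 with EHT-1864 (adjusted p = 1.40e-05), whereas Ssr2 stood at 0.68 and -0.06.

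Regulators of the UPR and of the integrated stress response showed 11 members of 21 higher and 3 lower. Xbp1, whose spliced product is a UPR transcription factor, read 10.24, 10.91 and 10.69 with BFA and 8.67, 8.82 and 8.91 with EHT-1864, a difference of 1.81 ± 0.16 (SE). Creb3, an ER-anchored factor of the Golgi stress response, differed by 1.49 ± 0.13 (SE), and Atf6, the sensor cleaved in the Golgi, by 1.12 ± 0.12 (SE). Ppp1r15a, the phosphatase subunit GADD34 that reverses eIF2 alpha phosphorylation, differed by 1.62 ± 0.14 (SE). Atf4 read 12.06, 12.15 and 12.03 against 11.12, 11.05 and 11.25, a difference of 0.94 ± 0.12 (SE). Ddit3, encoding the death-linked factor CHOP, read 11.30, 11.46 and 11.39 against 10.66, 10.31 and 10.69, a difference of 0.83 ± 0.16 (SE), and Atf3 differed by 0.79 ± 0.13 (SE). Both compounds stood above DMSO in hypoxia for these last genes. The differences were 2.49 with BFA and 1.66 with EHT-1864 for Ddit3, and 3.07 and 2.28 for Atf3, each with adjusted p of at most 1.15e-05. Atf4 stood at 1.09 with BFA and at 0.15 with EHT-1864 (adjusted p = 0.354). Called lower were the eIF2 alpha kinases Eif2ak1 (-0.39 ± 0.11 (SE)) and Eif2ak4 (-0.65 ± 0.24 (SE, 2 of 3 BFA arrays over the floor)) and the factor Creb3l2 (-0.50 ± 0.13 (SE)). These lost their calls when the arrays were set to the same MAD and in the fit of 6 arrays, and 1 was left after quantile normalization. Without single arrays, Eif2ak4 lost its call without any array other than BFA array 2 or 3, and also with the replicate number as a block.

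Targets of ATF4 and CHOP were higher in 20 of 34 and lower in 0, with a median of 0.59. When the arrays were set to the same MAD 31 were higher and the median was 0.97, and with a trended and robust variance 1 was lower. Besides Fgf21, the cystine transporter gene Slc7a11 read 9.23, 9.63 and 9.42 with BFA and 6.61, 6.08 and 6.79 with EHT-1864, a difference of 2.93 ± 0.18 (SE, 2 of 3 EHT-1864 arrays over the floor). Its DMSO level was 8.15 ± 0.02 (SD, n = 3), between both, and its normoxia mean was 6.12. Slc7a3, a cationic amino acid transporter, was at least 3.79-fold higher with BFA, and Cth, which makes cysteine from cystathionine, at least 3.79-fold. Aldh1l2, a mitochondrial folate enzyme, differed by 2.57 ± 0.14 (SE) and Chac1, a glutathione-degrading enzyme, by 1.58 ± 0.21 (SE). The tRNA synthetase genes Cars and Gars differed by 0.94 ± 0.15 (SE) and 0.59 ± 0.12 (SE), and 4 of 7 synthetases were called. In 26 of these genes with a promoter sequence, 7 (26.9%) held TGATGCAA, the composite element for ATF4 with a C/EBP partner, against 0.95% of all. It is shown in capitals in 80 bases of the genes Fgf21, Slc7a11 and Chac1, where Slc7a11 held it on both strands (RefSeq, GRCm38.p6):
Fgf21 (chr7:45615586-45615665, minus strand): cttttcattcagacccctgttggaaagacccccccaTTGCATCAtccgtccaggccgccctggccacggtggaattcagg
Slc7a11 (chr3:50443627-50443706, minus strand): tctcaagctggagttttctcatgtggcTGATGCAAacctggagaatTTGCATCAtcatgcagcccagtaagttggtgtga
Chac1 (chr2:119351013-119351092, plus strand): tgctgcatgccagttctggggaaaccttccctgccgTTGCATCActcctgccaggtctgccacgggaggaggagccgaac
At Fgf21 and Chac1 the match was on the strand opposite to the gene. The list was chosen as targets of ATF4 and CHOP, so its share of the element is a description and no test.

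Most measured coat and golgin genes of the route between the ER and the Golgi were higher with BFA. COPII coats carry cargo out of the ER, and 17 of 21 genes of COPII and ER exit were higher, 1 was lower and the median was 0.84, or 1.29 after scaling to the same MAD. Sec24d, a cargo-binding coat subunit, read 9.57, 9.28 and 9.20 with BFA against 6.995, 7.18 and 6.76, a difference of 2.37 ± 0.15 (SE). Mia3, which loads large cargo such as collagen, differed by 2.25 ± 0.13 (SE) and the coat gene Sec23a by 2.13 ± 0.12 (SE). The SNARE gene Sec22b differed by 1.29 ± 0.10 (SE). Bnip1, a SNARE of the return route, was the member called lower, and EHT-1864 was at least 1.18-fold higher. Gbf1, the Golgi ARF exchange factor that BFA inhibits, read 9.76, 9.96 and 9.94 against 7.98, 7.88 and 8.08 with no overlap, a difference of 1.91 ± 0.13 (SE) (adjusted p = 2.38e-07). Of the other BFA-sensitive exchange factors, Arfgef1 differed by 0.60 ± 0.17 (SE) and lost its call in the fit of the 6 arrays alone, and Arfgef2 by -0.06 ± 0.15 (SE) (adjusted p = 0.806) with overlapping arrays. Arf1, the main Golgi ARF, differed by 0.26 ± 0.11 (SE) (adjusted p = 0.0719) and passed under 7 alternatives, among them quantile normalization. Arf4 differed by 1.16 ± 0.11 (SE) and the ARF-like gene Arl1 by 1.02 ± 0.10 (SE). In contrast Arf6, which acts at the plasma membrane, read 8.76, 8.63 and 9.02 with BFA and 9.60, 9.45 and 9.63 with EHT-1864, a difference of -0.75 ± 0.13 (SE). The cytohesin Cyth1, an exchange factor at the cell surface that is not sensitive to BFA, was at least 1.09-fold higher with EHT-1864. In all, 13 of 31 ARF and COPI genes were higher and 6 lower, the latter 2 without EHT-1864 array 1, in the fit of 6 arrays or after scaling to the same MAD. In the COPI coat alone 7 of 9 were higher and 0 lower, with Copz2 at 1.54 ± 0.11 (SE) and Cope at 1.03 ± 0.11 (SE).

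Golgi structure genes and cargo receptors were higher in 21 of 29 and lower in 1, with a median of 0.75 that was 1.18 after scaling to the same MAD. Kdelr3, encoding a KDEL receptor, which sends escaped ER residents back, read 9.24, 9.74 and 9.64 against 6.69, 6.51 and 6.69. The difference was 2.91 ± 0.13 (SE) for Kdelr3 and 1.61 ± 0.10 (SE) for Kdelr2. The golgin genes Golgb1, encoding giantin, and Blzf1, encoding golgin-45, were called higher. Golgb1 read 7.60, 7.92 and 7.69 against 6.01, 5.77 and 5.71, with 1 of 3 EHT-1864 arrays over the floor, Blzf1 differed by 1.81 ± 0.13 (SE), and 12 of 14 golgins and matrix genes were higher. Tmed10, a p24 cargo receptor, was lower at -0.39 ± 0.11 (SE), and lost the call without EHT-1864 array 1, in the fit of 6 arrays and after quantile or MAD scaling. The letters ACGTGGC, the core of a Golgi stress element, were in 3.55% of all promoters, in 42.9% of the degradation and translocon list (9 of 21), in 33.3% of the COPII list (7 of 21) and in 26.1% of this list (6 of 23). Of genes at least 2-fold higher with BFA and above the floor on all BFA arrays 12.4% held it (47 of 379), and of genes at least 2-fold lower and above the floor on all EHT-1864 arrays 2.99% (28 of 936). Both sets were picked by the difference itself and by level in the brighter group. The 3.55% of all promoters had no such filter, so these shares are a description and no test. The second half-site of the ER stress element shares the letters CCACG with its reverse complement, so that a promoter can hold both motifs in overlap. The element stood close to the start in Sec24d and, on the opposite strand, in Kdelr3 (capitals; RefSeq, GRCm38.p6):
Sec24d (chr3:123267416-123267495, plus strand): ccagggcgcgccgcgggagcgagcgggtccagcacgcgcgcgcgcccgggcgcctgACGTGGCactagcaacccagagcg
Kdelr3 (chr15:79516328-79516407, plus strand): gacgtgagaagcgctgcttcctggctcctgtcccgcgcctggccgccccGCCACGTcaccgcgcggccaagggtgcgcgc
Neither of these stretches was tested for binding.

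**Figure D3:**
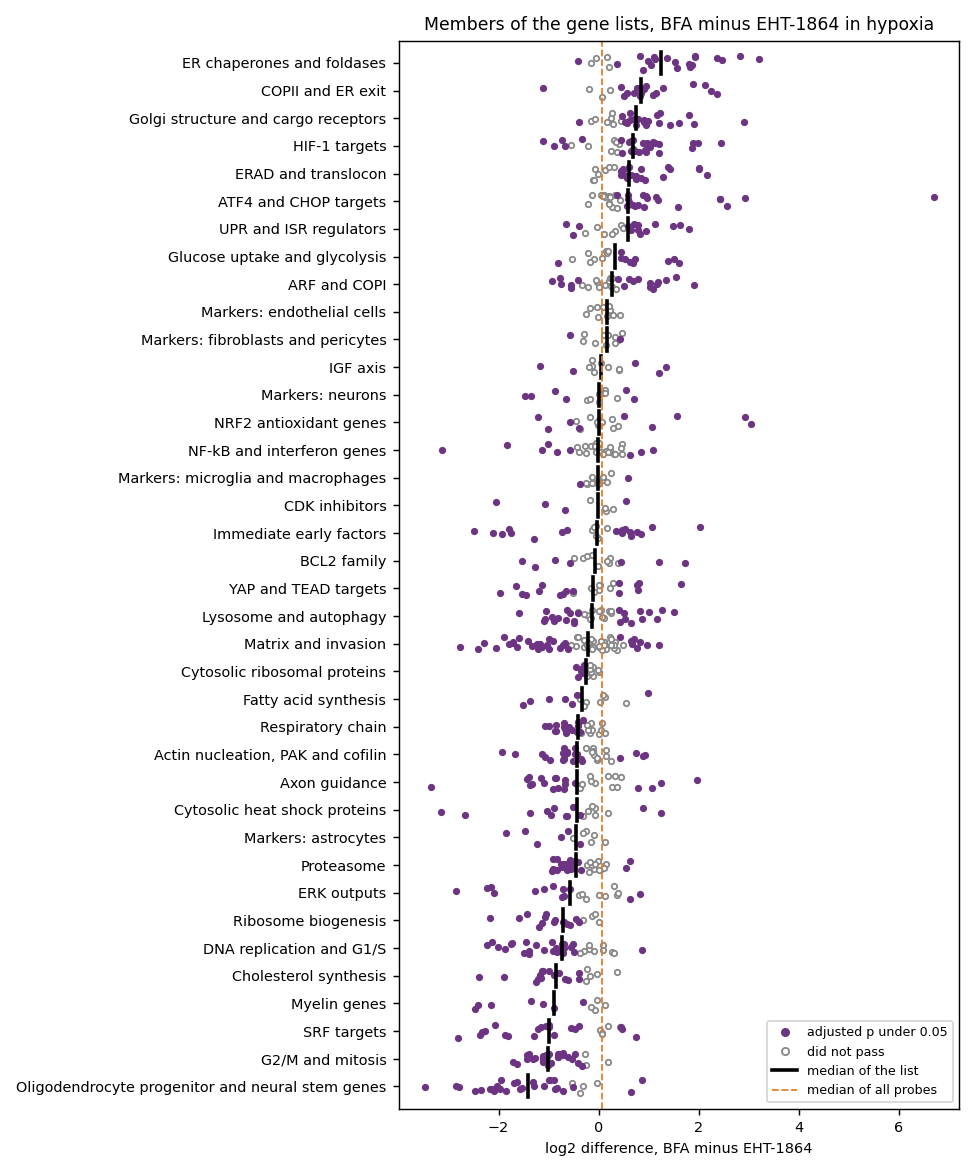
Log2 difference, BFA minus EHT-1864 (x axis), of every measured member of 33 gene lists and 5 lists of cell type markers (rows, ordered by median). Filled points passed the adjusted p of 0.05, open points did not, black bars are list medians and the dashed line is the median of all probes at 0.06; medians run from 1.25 in ER chaperones to -1.42 in oligodendrocyte progenitor and neural stem genes.

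HIF-1 targets were also higher with BFA than with EHT-1864. Of 27 measured targets 21 were higher and 3 lower, with a median of 0.80, and 4 of the calls had both groups below the floor. P4ha2, a collagen prolyl hydroxylase, read 8.88, 8.99 and 9.23 with BFA and 6.48, 6.39 and 6.89 with EHT-1864. The difference was 2.45 ± 0.15 (SE). Its DMSO mean was 10.29 ± 0.11 (SD, n = 3) in hypoxia and 6.24 in normoxia, so that the EHT-1864 arrays were nearer to the normoxic level and the BFA arrays nearer to the hypoxic one. Ankrd37 showed the same order, with 8.02, 7.88 and 7.91 for BFA, 5.87, 5.67 and 6.32 for EHT-1864, and DMSO means of 9.30 ± 0.03 in hypoxia and 5.22 in normoxia. For Ankrd37, EHT-1864 arrays 1 and 2 lay below their floors of 5.99 and 6.15, and the normoxia mean below the mean floor of 5.61. Bnip3, a mitophagy receptor, differed by 1.201 ± 0.14 (SE) and Fam162a by 1.13 ± 0.13 (SE). Vegfa, the angiogenic growth factor, read 10.28, 10.10 and 10.01 with BFA against 9.50, 8.83 and 9.65, a difference of 0.80 ± 0.20 (SE) (adjusted p = 0.00614). Against DMSO in hypoxia Vegfa stood at -0.36 with BFA, which did not pass (adjusted p = 0.152), and at -1.16 with EHT-1864 (adjusted p = 8.48e-04). Ero1a, a target of both HIF-1 and the UPR, differed by 1.87 ± 0.14 (SE) and stood 0.47 above DMSO with BFA. The factor Hif1a itself went the other way, with 7.999, 8.49 and 8.42 against 9.27, 9.08 and 9.25 and a difference of -0.90 ± 0.13 (SE). Its partner gene Arnt differed by -0.74 ± 0.13 (SE), the MYC antagonist Mxi1 by -0.68 ± 0.12 (SE) (no call after scaling to the same MAD), and EHT-1864 was at least 1.41-fold higher for the kinase gene Pdk3. Over all 35 regulators and targets the median against DMSO was -0.89 with BFA and -1.39 with EHT-1864, so that both compounds lay below DMSO on balance.

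Glucose transporters and glycolytic enzymes were called higher in 9 of 18 and lower in 1, with a median of 0.32. After scaling to the same MAD 14 were higher and the median was 0.80, while 2 were lower without EHT-1864 array 2 or normoxia array 3, with a trended and robust variance and under each filter on dim probes. The transporter gene Slc2a3 read 7.25, 7.91 and 8.09 with BFA and 6.29, 6.08 and 6.35 with EHT-1864, a difference of 1.51 ± 0.18 (SE, 2 of 3 EHT-1864 arrays over the floor), and Slc2a1 differed by 0.63 ± 0.14 (SE). Hexokinase 2 (Hk2) differed by 1.60 ± 0.21 (SE), enolase 2 (Eno2) by 1.38 ± 0.23 (SE, 2 of 3 EHT-1864 arrays over the floor) and the phosphofructokinase genes Pfkl and Pfkm by 0.69 ± 0.13 (SE) and -0.82 ± 0.11 (SE). Medians against DMSO were -0.99 with BFA and -1.05 with EHT-1864. The hypoxia response core ACGTGC was in 53.6% of the promoters of HIF-1 regulators and targets (15 of 28) and in 7.68% of all. It is shown in capitals for P4ha2 and for Bnip3, where matches on both strands overlap to GCACGTGC (RefSeq, GRCm38.p6):
P4ha2 (chr11:54100809-54100888, plus strand): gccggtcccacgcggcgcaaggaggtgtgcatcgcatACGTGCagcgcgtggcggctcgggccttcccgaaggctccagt
Bnip3 (chr7:138909572-138909651, minus strand): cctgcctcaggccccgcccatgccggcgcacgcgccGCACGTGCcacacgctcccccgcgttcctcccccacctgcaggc
The capitals mark letters that matched in this window and no measured occupancy. The list was chosen as regulators and targets of HIF-1, so its share of the core is a description and no test.

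Genes of cholesterol synthesis were lower with BFA. Of 20 measured, 15 were lower and 0 higher (1 at an unadjusted p under 0.05), with a median of -0.85 and 9 at least 2-fold lower, although 2 were called higher after scaling to the same MAD, where the median was -0.51, and 1 without BFA array 1, after quantile normalization, with a trended and robust variance and among probes reaching 6 or above the floor on 3 arrays. Hsd17b7, a late enzyme of the pathway, read 5.21, 5.12 and 5.34 with BFA, below the floor, and 7.57, 7.72 and 7.54 with EHT-1864, at least 2.17-fold more. Nsdhl, a sterol dehydrogenase, differed by -1.88 ± 0.13 (SE) and squalene synthase Fdft1 by -1.26 ± 0.11 (SE). Hmgcs1, the synthase before the rate-limiting reductase, read 8.89, 9.16 and 9.20 against 10.35, 10.21 and 10.12, a difference of -1.14 ± 0.12 (SE). Both compounds lay below the DMSO level of 11.37 ± 0.04 (SD, n = 3) for Hmgcs1. Srebf2, encoding the sterol-regulated factor that must travel to the Golgi to be cleaved, differed by -1.0005 ± 0.11 (SE), and its escort gene Scap by -1.12 ± 0.21 (SE). Against DMSO all 20 genes were called lower with BFA and 14 with EHT-1864, where 24.6% and 17.4% of all probes were. Fatty acid synthesis was more mixed, with 6 of 14 lower, 1 higher and 7 not passing, and 3 lower and 4 higher after scaling to the same MAD (2 higher without BFA array 1, after quantile normalization, with a trended and robust variance and under each filter on dim probes). The desaturase genes Fads2 and Scd1 differed by -1.36 ± 0.14 (SE) and -0.99 ± 0.11 (SE) and the lipin gene Lpin1 by -1.51 ± 0.13 (SE). Fatty acid synthase Fasn went the other way, at 0.98 ± 0.14 (SE), and stood at -0.34 against DMSO with BFA (adjusted p = 0.0621) and at -1.32 with EHT-1864 (adjusted p = 2.91e-05).

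Cell cycle genes were lower with BFA. In DNA replication and G1/S, 26 of 36 were lower and 1 higher, with a median of -0.73. Mcm6, a subunit of the replicative helicase, read 7.39, 7.31 and 7.07 with BFA and 9.41, 9.71 and 9.31 with EHT-1864, a difference of -2.22 ± 0.13 (SE). The DMSO level of Mcm6 was 9.27 ± 0.10 (SD, n = 3), and EHT-1864 did not differ from it detectably, at 0.21 (adjusted p = 0.261). Mcm6 does not stand for the whole list, of which 31 were called lower than DMSO with BFA, and 11 lower and 6 higher with EHT-1864. Of all probes 24.6% were called lower than DMSO with BFA, and 17.4% lower and 13.0% higher with EHT-1864. Among the 12 regulators of the list 12 were lower than DMSO with BFA (median -1.30) and 9 with EHT-1864 (median -1.05). The primase gene Prim1 differed by -2.12 ± 0.13 (SE), Mcm4 by -2.005 ± 0.16 (SE) and the ribonucleotide reductase gene Rrm1 by -1.86 ± 0.13 (SE). Cdk4 differed by -0.83 ± 0.10 (SE), without a call after scaling to the same MAD, and the licensing factor Cdt1 by -0.70 ± 0.13 (SE). Cyclin E2 (Ccne2) was the gene called higher, with 6.60, 6.77 and 6.40 against 5.77, 5.46 and 5.96 and 1 of 3 arrays of each group over the floor. After quantile normalization 2 genes were called higher, and 3 after scaling to the same MAD or without BFA array 1. Of G2/M and mitosis genes 31 of 34 were lower and 0 higher (0 at an unadjusted p under 0.05), with a median of -1.003, and 1 was called higher after quantile or MAD scaling. Mki67, the proliferation antigen Ki-67, read 8.72, 8.89 and 8.59 with BFA and 10.51, 10.63 and 10.20 with EHT-1864, a difference of -1.71 ± 0.15 (SE). Top2a, a topoisomerase, differed by -1.42 ± 0.13 (SE), the condensin gene Ncapg by -1.41 ± 0.12 (SE, 2 of 3 BFA arrays over the floor), and the mitotic kinases Plk1 and Bub1 by -1.31 ± 0.13 (SE) and -1.39 ± 0.14 (SE). Against DMSO 32 of the 34 were lower with BFA and 8 with EHT-1864, where 24.6% and 17.4% of all probes were. The letters TTTGAA of the cell cycle homology region, bound by MuvB complexes, were in 77.8% of G2/M promoters (21 of 27), against 17.8% of all. The list was chosen by cell cycle function, so this share is a description and no test. Mki67 held these letters in a pair of copies on the strand of the gene (capitals, RefSeq, GRCm38.p6):
Mki67 (chr7:135716444-135716523, minus strand): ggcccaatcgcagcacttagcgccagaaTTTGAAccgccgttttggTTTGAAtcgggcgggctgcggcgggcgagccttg
Of 8 CDK inhibitors 1 was higher and 3 were lower, where 16.9% and 19.6% of all probes were. After quantile or MAD scaling 3 were higher, and 2 with a trended and robust variance. Cdkn2a, encoding p16 and ARF, differed by -2.05 ± 0.12 (SE), with 7.18, 7.33 and 7.22 against 9.11, 9.40 and 9.36, and Cdkn2c by 0.55 ± 0.12 (SE). Cdkn3 differed by -1.06 ± 0.17 (SE, 2 of 3 BFA arrays over the floor), and Cdkn2b read 6.22, 6.53 and 6.27 against 6.98, 6.84 and 7.18, with 1 of 3 BFA arrays over the floor.

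Rac GTPases are the targets of EHT-1864. Rnd2, a GTPase that does not hydrolyse GTP, read 6.33, 7.03 and 6.68 with BFA and 9.47, 9.38 and 9.37 with EHT-1864, a difference of -2.72 ± 0.16 (SE, 2 of 3 BFA arrays over the floor). Rac1, the ubiquitous Rac, read 11.40, 11.58 and 11.49 against 12.03, 12.04 and 11.87, a difference of -0.49 ± 0.11 (SE) (adjusted p = 0.00299). The Rac1 difference was -0.25 (adjusted p = 0.0681) after quantile normalization and turned to 0.06 (adjusted p = 0.773) after scaling to the same MAD. Rac2 and Rac3 lay below the floor on all arrays of both groups. The Rac exchange factor gene Prex1 was at least 1.08-fold higher with EHT-1864, and Elmo1, which works with DOCK exchange factors, differed by -1.46 ± 0.13 (SE). The Rac GTPase-activating genes Chn2 and Arhgap31 also differed, by at least 1.72-fold in favour of EHT-1864 and by -1.71 ± 0.20 (SE, 2 of 3 BFA arrays over the floor). In actin nucleation, PAK and cofilin genes 19 of 33 were lower and 4 higher, but 10 were lower after scaling to the same MAD, where the median of -0.43 became -0.14. Wasf1, encoding WAVE1, read 8.02, 7.53 and 7.70 against 9.79, 9.77 and 9.49, a difference of -1.94 ± 0.14 (SE), and its partner Nckap1 differed by -0.97 ± 0.12 (SE). The Arp2/3 complex was split. Arpc1b differed by -1.66 ± 0.11 (SE) and Actr3 by -0.69 ± 0.10 (SE) (no call after scaling to the same MAD), while Arpc5, Arpc5l and Arpc1a differed by 0.93 ± 0.17 (SE), 0.74 ± 0.14 (SE) and 0.43 ± 0.12 (SE), the last without a call in the fit of 6 arrays. The actin-severing cofilin gene Cfl1 differed by -1.12 ± 0.11 (SE).

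SRF targets, the actin and contractile genes that follow the pool of unpolymerised actin through MRTF, were lower with BFA in 17 of 25 and higher in 3, with a median of -0.98 that was -0.52 after scaling to the same MAD. Srf read 7.23, 7.11 and 7.37 with BFA and 9.18, 9.10 and 9.05 with EHT-1864, a difference of -1.87 ± 0.12 (SE). Against a DMSO level of 7.62 ± 0.17 (SD, n = 3), Srf stood at 1.49 with EHT-1864 and at -0.38 with BFA, both passing. Tagln2, an actin-binding protein, read 7.89, 7.89 and 8.03 against 10.25, 10.38 and 10.16, a difference of -2.33 ± 0.11 (SE). Against DMSO it stood at -1.98 with BFA and at 0.35 with EHT-1864. Calponin 2 (Cnn2) was at least 2.39-fold higher with EHT-1864. Tln1, Mrtfa and Tpm2 were the 3 called higher, at 0.75 ± 0.14 (SE), 0.47 ± 0.10 (SE) and 0.45 ± 0.14 (SE, 2 of 3 BFA arrays over the floor, 2 of 3 EHT-1864 arrays over the floor), the last without a call when BFA array 2 or EHT-1864 array 2 was left out. YAP and TEAD factors and targets gave 6 of 24 higher and 10 lower, with 3 higher in the fit of 6 arrays. Ajuba, a LIM protein that holds back LATS kinases, was at least 1.83-fold higher with BFA, where 2 of 3 arrays lay above the floor, and Wwtr1, encoding TAZ, differed by 0.77 ± 0.13 (SE). Tead2 was at least 2.59-fold higher with EHT-1864, and the receptor kinase gene Axl differed by -1.64 ± 0.14 (SE).

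Immediate early genes divided, with 10 of 24 higher and 8 lower, and 6 higher without EHT-1864 array 2 or with array weights. Klf6 read 7.82, 7.99 and 8.005 with BFA and 10.43, 10.58 and 10.27 with EHT-1864, a difference of -2.49 ± 0.12 (SE), with a DMSO level of 7.68 ± 0.09 (SD, n = 3). Jun, the AP-1 subunit, showed the same order, with 8.67, 8.57 and 8.55 against 10.59, 10.75 and 10.24 and a difference of -1.93 ± 0.13 (SE). Both genes stood above DMSO with EHT-1864, by 2.75 and 2.18, and not detectably with BFA, at 0.26 (adjusted p = 0.0887) and 0.25 (adjusted p = 0.138). For Fos (-2.10 ± 0.17 (SE)) and Myc (-1.75 ± 0.11 (SE)) it was BFA that departed from DMSO, at -2.10 and -1.85, against 0.001 and -0.10 with EHT-1864, which did not pass. Ier3, an early gene for cell survival, was at least 2.74-fold higher with BFA. Egr1 differed by 0.77 ± 0.14 (SE), and against DMSO it differed by -1.49 with BFA and -2.26 with EHT-1864. Outputs of ERK signalling were lower in 11 of 21 and higher in 2, the latter 4 without BFA array 2 and 1 without EHT-1864 array 2 or with array weights. Phlda1 was at least 4.18-fold higher with EHT-1864 and the phosphatase gene Dusp4 at least 3.27-fold. The ETS factor gene Etv1 differed by -2.22 ± 0.14 (SE), and the feedback inhibitor gene Spry1 read 6.85, 6.19 and 6.39 with BFA, where 1 of 3 arrays lay over the floor, against 8.70, 8.61 and 8.37. Spred2 went the other way at 0.83 ± 0.12 (SE).

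**Figure D4:**
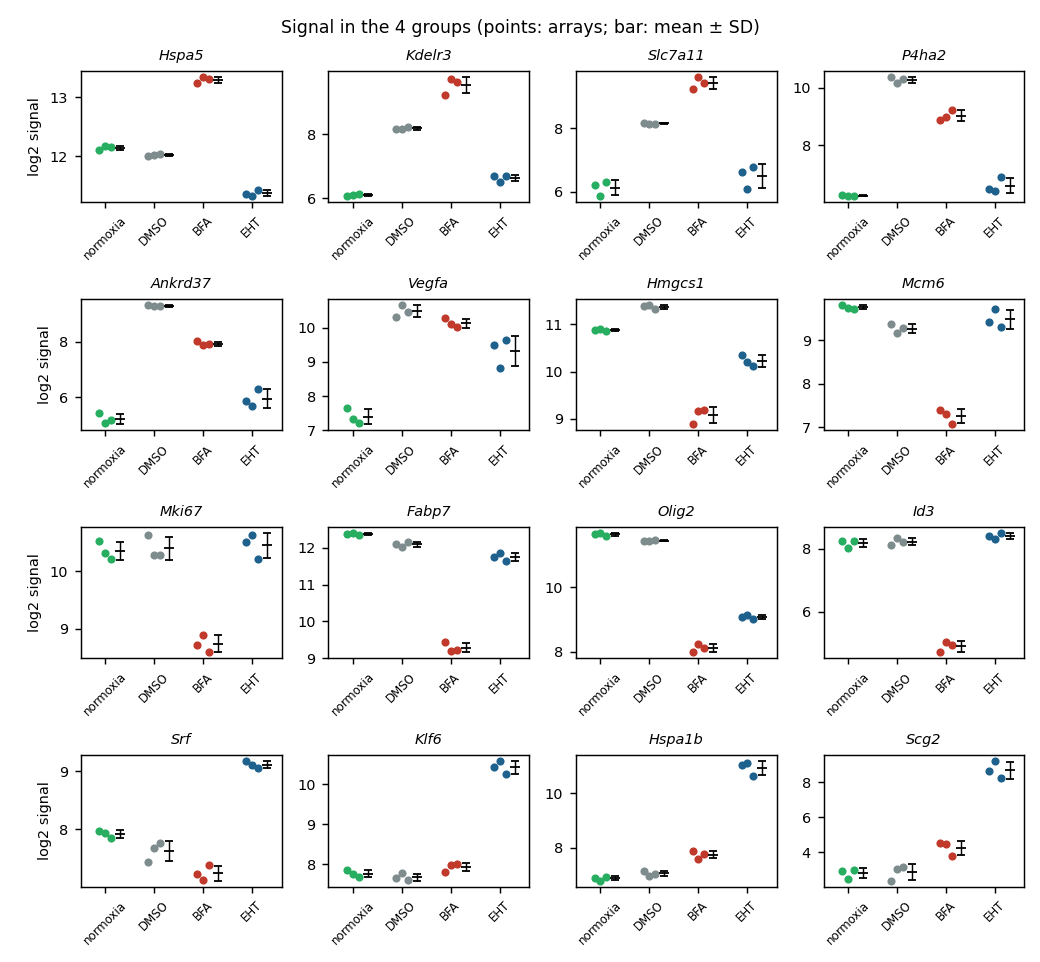
Log2 signal (y axis, own scale in each panel) of 16 genes for normoxia (DMSO) and for the hypoxic groups given DMSO, BFA or EHT-1864; points are the 3 arrays and bars the mean ± SD. Hspa5, Kdelr3 and Slc7a11 are high with BFA and low with EHT-1864, Mcm6, Mki67 and Id3 are low with BFA, and Srf, Klf6, Hspa1b and Scg2 are high with EHT-1864.

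Cytosolic heat shock genes were lower in 10 of 18 and higher in 2, and lower in 6 after scaling to the same MAD, where the median of -0.44 became -0.04. The stress-inducible Hsp70 genes Hspa1a and Hspa1b led, with Hspa1b at 7.89, 7.61 and 7.77 with BFA and 11.04, 11.08 and 10.61 with EHT-1864. The difference was -3.16 ± 0.14 (SE) for Hspa1b and -2.67 ± 0.15 (SE) for Hspa1a. These genes are near-identical copies, so the division of signal between them is uncertain. EHT-1864 stood 3.85 and BFA 0.69 above DMSO for Hspa1b. Hsp90aa1, the inducible cytosolic Hsp90, differed by -1.38 ± 0.11 (SE), and the small heat shock gene Hspb8 by 1.25 ± 0.28 (SE, 2 of 3 EHT-1864 arrays over the floor). NF-kB and interferon genes were mostly dim, with 23 of 33 below the floor in both groups. Called were 3 higher and 6 lower, where 16.9% and 19.6% of all probes were (5 or 6 higher after quantile or MAD scaling). Nfkbia, the NF-kB inhibitor, read 6.37, 6.36 and 6.28 with BFA and 8.36, 8.23 and 7.90 with EHT-1864, at least 3.19-fold more. Ifit3, an interferon-induced gene, had a wide spread with EHT-1864, with 4.87, 3.49 and 3.88 against 7.31, 7.91 and 6.44 and a bound of 1.66-fold.

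Oligodendrocyte progenitor and neural stem genes had the lowest median of all lists examined, at -1.42, with 26 of 32 lower and 2 higher. The helix-loop-helix gene Id3, whose product blocks differentiation factors, read 4.72, 5.06 and 4.97 with BFA and 8.39, 8.29 and 8.49 with EHT-1864, at least 3.73-fold more (adjusted p = 1.21e-08). Id2 differed by -2.17 ± 0.11 (SE). Sdc3, a syndecan, read 6.75, 7.13 and 7.25 against 9.92, 9.85 and 9.72, a difference of -2.79 ± 0.13 (SE), and Fabp7, a fatty acid binding protein of radial glia, differed by -2.46 ± 0.11 (SE). Sox2 differed by -0.89 ± 0.13 (SE). Olig2, the lineage factor expressed in most gliomas, read 7.98, 8.23 and 8.10 against 9.07, 9.14 and 9.02, a difference of -0.97 ± 0.11 (SE). Against the DMSO level of 11.44 ± 0.01 (SD, n = 3), Olig2 differed by -3.34 with BFA and -2.36 with EHT-1864 on the log2 scale. The intermediate filament gene Nes went the other way, with 8.45, 9.15 and 8.96 against 8.01, 8.03 and 7.92 and a difference of 0.87 ± 0.18 (SE), whereas Prom1, also called higher, lay below the floor in both groups and had no call without EHT-1864 array 3. Higher calls numbered 1 there and after quantile or MAD scaling, with array weights and under each filter on dim probes. Against DMSO, 27 of 32 were lower with BFA and 17 with EHT-1864, where 24.6% and 17.4% of all probes were. Myelin genes were lower in 7 of 11 and higher in 0, with 4 below the floor in both groups. Cldn11, a tight junction protein of myelin, differed by -2.48 ± 0.11 (SE) and Cnp, a myelin phosphodiesterase, by -2.41 ± 0.17 (SE, 2 of 3 BFA arrays over the floor). Enpp6 was at least 2.04-fold higher with EHT-1864.

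Of 65 matrix and invasion genes 25 were lower and 8 higher, with a median of -0.21, and 24 lay below the floor in both groups. The median was -0.72 among members reaching 6 on 3 arrays and -0.68 among those above the floor on 3. Timp4, a metalloproteinase inhibitor, was at least 3.37-fold higher with EHT-1864, and the membrane protease gene Mmp16 differed by -1.80 ± 0.11 (SE). Snai2, encoding the mesenchymal factor SLUG, read 8.97, 9.03 and 9.03 with BFA and 11.14, 11.16 and 10.87 with EHT-1864, a difference of -2.04 ± 0.12 (SE). Its DMSO level of 8.76 ± 0.04 (SD, n = 3) differed from BFA by 0.25 (adjusted p = 0.102). E-cadherin (Cdh1), which SLUG is known to repress, was also high with EHT-1864, at 7.88, 7.56 and 7.52 against 5.36, 5.32 and 5.40, at least 2.23-fold. The proteoglycan gene Vcan differed by -1.59 ± 0.15 (SE) and the collagen gene Col6a1 by -1.33 ± 0.13 (SE), while Timp1 and the plasminogen activator gene Plat differed by 0.96 ± 0.16 (SE) and 0.66 ± 0.12 (SE). Axon guidance genes were lower in 15 of 30 and higher in 4. Plexin B3 (Plxnb3) differed by -1.43 ± 0.12 (SE), and the netrin receptor gene Unc5b read 7.74, 8.08 and 7.79 against 5.996, 5.87 and 5.88, with 1 of 3 EHT-1864 arrays over the floor. In the IGF axis 3 of 13 were higher and 2 lower, where 16.9% and 19.6% of all probes were, so that the counts are no finding. Among the higher were Igfbp3 (1.34 ± 0.14 (SE)) and the insulin receptor gene Insr (1.22 ± 0.13 (SE)). Igfbp5 was at least 1.19-fold higher with EHT-1864, and Igf1r (-0.51 ± 0.17 (SE, 2 of 3 BFA arrays over the floor)) lost its call without BFA array 1 or 3 and without EHT-1864 array 1 or 2. In each of these fits, after quantile or MAD scaling and with array weights, 1 gene of the axis was called lower. In the BCL2 family 3 of 16 were higher and 4 lower, where 16.9% and 19.6% of all probes were. These counts are no finding about the family. Bcl2, which restrains apoptosis, was at least 2.57-fold higher with BFA, and its relative Bcl2l1 at least 1.58-fold higher with EHT-1864.

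Ribosome biogenesis genes were lower in 15 of 19 and higher in 0, with a median of -0.71. Nop58, a box C/D snoRNP protein, read 8.37, 8.34 and 8.33 against 9.37, 9.43 and 9.37, a difference of -1.04 ± 0.11 (SE), and stood 0.80 above DMSO with EHT-1864. Utp4 differed by -1.60 ± 0.12 (SE). The respiratory chain was lower in 17 of 27 and higher in 0, with a median of -0.42. Lower calls were 11 after quantile normalization (median -0.21) and in the fit of 6 arrays, and after scaling to the same MAD 7 were lower and 3 higher (median -0.14). Atp5b, the catalytic subunit of ATP synthase, differed by -0.98 ± 0.10 (SE). Proteasome genes were lower in 17 of 30 and higher in 2, but 8 and 8 after scaling to the same MAD (median -0.44 and -0.07), with Psmb7 at -0.92 ± 0.10 (SE) and Psmb4 at 0.63 ± 0.10 (SE). Mean levels of the respiratory chain, proteasome and cytosolic ribosomal lists lay in the range of the brightest 10% of probes (8.78 to 12.92). Of those 2221 probes 1064 were called lower and 394 higher, with a median of -0.29. Cytosolic ribosomal proteins were lower in 7 of 20, with a median of -0.25, not below that of these bright probes. The ribosomal median turned to 0.32 under MAD scaling, where 0 were lower and 4 higher. Without BFA array 1 or 3 or EHT-1864 array 1 the count of lower calls was 4, without EHT-1864 array 3 it was 3, in the fit of 6 arrays it was 1 and after quantile normalization 0. It was 11 without the dimmest 25% of probes, 12 under both other filters on dim probes and 16 with a trended and robust variance. The lysosome and autophagy list was split, with 11 of 37 higher and 13 lower, or 7 lower after scaling to the same MAD. Its median of -0.14 turned to 0.03 after quantile normalization, to 0.25 after MAD scaling and to 0.0055 without BFA array 1, and it was -0.26 without BFA array 2. The protease gene Ctsl differed by 1.27 ± 0.14 (SE) and Ctsb, also a cathepsin, by -1.09 ± 0.14 (SE), and the autophagy gene Atg9a by 1.18 ± 0.16 (SE). NRF2 antioxidant genes were higher in 5 of 19 and lower in 4, where 16.9% and 19.6% of all probes were. After scaling to the same MAD 10 were higher. Hmox1, heme oxygenase, read 11.72, 11.69 and 11.73 with BFA and 10.29, 9.89 and 10.29 with EHT-1864, a difference of 1.56 ± 0.13 (SE), while the thioredoxin gene Txn1 differed by -1.01 ± 0.11 (SE).

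**Figure D5:**
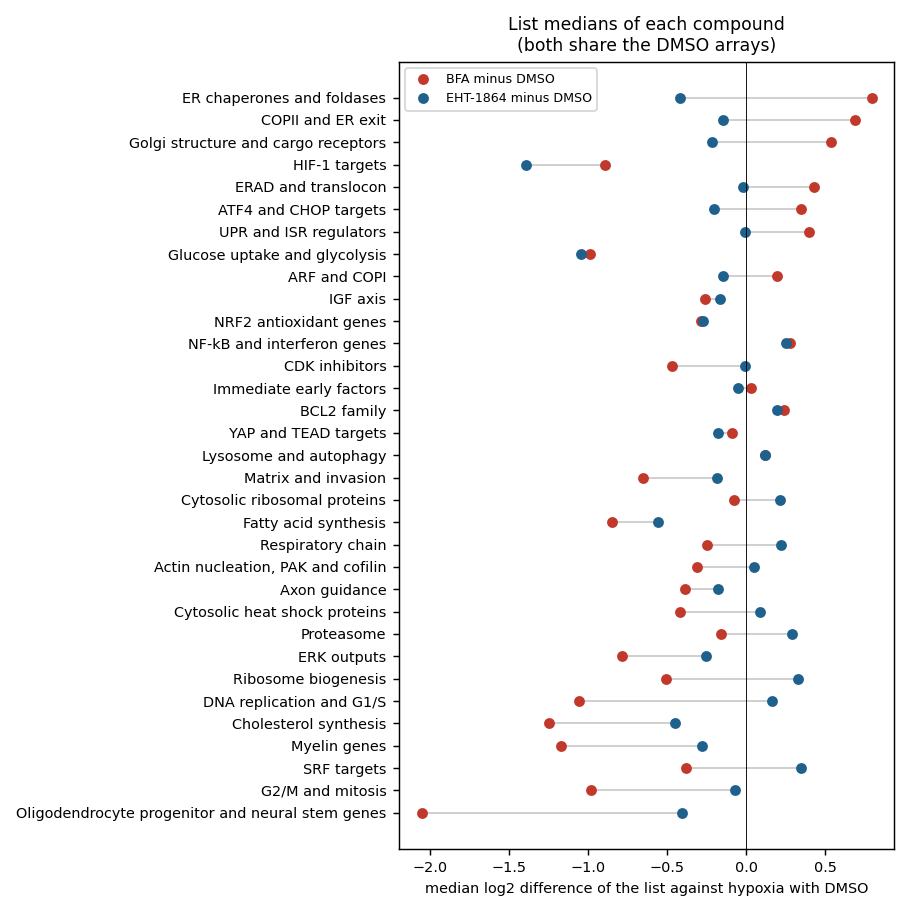
Median log2 difference against hypoxia with DMSO (x axis) of 33 gene lists (rows) with BFA (red) and EHT-1864 (blue); both comparisons share the 3 DMSO arrays. ER chaperones stand at 0.79 with BFA and -0.42 with EHT-1864, HIF-1 regulators and targets at -0.89 and -1.39, and oligodendrocyte progenitor and neural stem genes at -2.05 and -0.41.

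Cell identity was checked with markers. S100b, whose promoter drives the transgene, read 7.89, 8.19 and 7.76 with BFA and 9.40, 9.55 and 9.30 with EHT-1864, a difference of -1.47 ± 0.13 (SE), against 9.68 ± 0.06 (SD, n = 3) with DMSO. Olig2 and Sox2 were above the floor on all 6 arrays, Tsc1 differed by 0.14 ± 0.20 (SE) with overlapping arrays (adjusted p = 0.634), and the mouse Egfr probe lay below the floor on all 6. The values of Trp53 and Pdgfra are not reported here. Astrocyte markers were called lower in 6 of 12 and higher in 0 (0 at an unadjusted p under 0.05; 1 after scaling to the same MAD), and 6 lay below the floor in both groups. The mean level of that list was 6.06 to 6.09 on the BFA arrays and 6.69 to 6.71 on the EHT-1864 arrays. Of neuron markers 10 of 14 lay below the floor in both groups, with 2 higher and 4 lower, and mean levels of 4.70 to 4.90 and 4.93 to 4.99. Microglia and macrophage markers lay below it in 11 of 12 (mean levels 3.66 to 3.91 and 3.74 to 3.82), with 1 higher and 1 lower. Endothelial markers did so in 10 of 11 (3.96 to 4.09 and 3.86 to 3.98), with 0 called by limma and 0 at an unadjusted p under 0.05, although 2 were called higher without BFA array 2 and 1 without BFA array 3 or with the replicate number as a block. Fibroblast and pericyte markers did so in 11 of 12 (3.99 to 4.33 and 3.95 to 4.19), with 1 higher and 1 lower. The calls of neuron, microglia and fibroblast markers rest on few probes, mostly below the floor, and over the alternatives between 0 and 2 were called higher, with 0 or 1 microglia and 0 to 2 fibroblast markers called lower. In these cultures fewer cells of a type and less RNA per cell cannot be told apart.

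Values near the threshold were small. Just inside it lay Defa40 at 0.44 ± 0.16 (SE), Gata5os at 0.43 ± 0.16 (SE) and Gm648 at -0.37 ± 0.14 (SE), with adjusted p between 0.0499 and 0.05. Just outside lay Dynlrb1 at -0.28 ± 0.10 (SE), Serf2 at 0.31 ± 0.11 (SE) and a probe with no gene name. Of 55 genes with several probes, Rora, named after its values were seen, had probes called in opposite directions.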

How the data were processed

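The authors deposited log2 values made by RMA in Affymetrix Expression Console, per the submitters' processing notes (versions, settings and genome build are not given in the sources used here). RMA normalizes all arrays together, which hides any shift in the RNA content of a cell. Of 28846 rows, 6640 controls were left out and 22206 probes were tested with no filter, in 1 fit of 12 arrays with limma 3.58.1 (lmFit and eBayes, residual df 8, prior df 4.87) in R 4.3.3. Tests were run on the log2 values. The p-values measure the spread between arrays, which may be partly technical. The number of arrays limits the precision. A gene below the floor in 1 group got a bound, computed by taking for each dim array its floor or its signal, whichever was higher. Of the probes, 19572 had 1 symbol, 0 several and 2634 none in the platform annotation. All 19572 were matched by Entrez number to a RefSeq table of assembly GRCm38.p6, and the brightest of a gene's probes stood for it.

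The 39 lists held 1010 different genes, of which 939 were measured. The result of 1 list is not reported here. Promoters of chromosome 18 were not used. Promoters were also searched for a sterol element (TCACNCCAC) and a cyclic AMP response element (TGACGTCA), and the results of these searches are not given here. Members and lists were chosen with earlier results of these data known. Named are the 15 largest rises and falls, up to 4 members of each list with the smallest adjusted p per direction and 2 per role, 22 fixed genes, and the probes nearest the threshold. From these, genes of unsure role and lesser members were left out of the text. Same-numbered arrays of both compounds deviated with correlations of -0.16, -0.18 and -0.01, and the main fit did not pair them. Deviations from a mean of 3 arrays are tied to each other, so these values cannot show whether same-numbered arrays shared a culture. Alternatives were 3 scalings, 3 filters on dim probes, a trended and robust variance, array weights, the 6 arrays alone, a replicate block, a test against a log2 difference of 0.5, the mean of a gene's probes and each array left out.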

Additional observations from a re-analysis of the deposited data

Results flagged for a closer look

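The spiked hybridization control probes, which the comparison does not use, averaged 10.926 on the BFA arrays (10.82 to 11.06) and 10.249 on the EHT-1864 arrays (10.20 to 10.33). Both were above the mean of 9.757 on the DMSO arrays in hypoxia (9.69 to 9.82). These groups of 3 arrays did not overlap. The poly-A controls averaged 8.22 with BFA, 7.91 with EHT-1864 and 7.61 with DMSO. The part of these differences in the results was not tested.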

How the results depend on the processing

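The median difference of all probes, 0.06, was 0.0173 after quantile normalization, -0.00139 without the dimmest 25%, -0.144 among probes reaching 6 on 3 arrays and -0.146 among those above the floor on 3. The count of probes at least 2-fold higher, 903, was 1414 after scaling to the same MAD and 596 above the floor. A test against 0.5 called 2533 probes, 898 higher and 1635 lower, which its stricter hypothesis lowers by construction. Leaving out 1 array gave 3128 to 3886 higher and 3772 to 4394 lower calls. With the replicate number as a block 3610 were higher and 4206 lower. None of the counts with 1 array left out or with the block moved by over 1.5 times. Under MAD scaling these turned sign without passing: Ftl1 to 0.18, Rpl8 to 0.16, Rps4x to 0.0285, Rpl6 to 0.21, Rps9 to 0.13 and Rac1 to 0.0649. The list median of cytosolic ribosomal proteins turned to 0.32 there, and that of lysosome and autophagy genes turned to 0.25, to 0.0293 after quantile normalization and ranged from -0.262 to 0.00548 with 1 array left out. The medians of CDK inhibitors (-0.022) and immediate early factors (-0.031) stood at 0.13 and 0.13 under MAD scaling. Of 39 list medians 25 moved by more than the spread between arrays under MAD scaling and 21 after quantile normalization. Of 267 named genes called, 230 passed under every alternative that tested them other than the test against 0.5, and 185 under that test too. Signal over background limits 1678 higher and 557 lower calls below the floor in both groups.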
